A study of Mus musculus with 19 samples.

Results

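The 7 genes described here encode parts of the Notch pathway: the receptors Notch1, Notch2 and Notch4, the ligand Jag1, the protease Adam10, the nuclear factor Rbpj and the target Hes1. They were chosen by name, with earlier results of these data known, from the 24421 gene symbols in each of the deposited count tables, and all 7 had a row in the cDC1 and the cDC2 table. The RNA came from spleens of C57BL6 mice, from which conventional dendritic cells of type 1 (cDC1) and type 2 (cDC2) had been sorted. The 3 genotypes were labelled WT, Xbp1 KO, which lacks the transcription factor XBP1, and Xbp1-Ire1 KO, which lacks XBP1 and also IRE1, the endoplasmic reticulum sensor whose RNase splices Xbp1 mRNA. The 19 libraries made 6 groups of 3, except for cDC2 WT with 4.

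The labels do not give the age or sex of the mice, the Cre driver, the exons deleted, or whether replicates were separate mice, so p-values measure the spread between these libraries, which may be technical. Of the WT libraries, replicates 1 and 2 of each cell type carry a name with floxed Xbp1 and Ire1 alleles (called fl-fl here), and replicate 3 of cDC1 and replicates 3 and 4 of cDC2 are named WT. Total counts per library ran from 10606864 to 16209469. Summed levels of the 8 cDC1 markers were 6950 to 9050 CPM (counts scaled to a library total of 1e6) in cDC1 libraries and 216 to 369 CPM in cDC2 libraries. Those of the 7 cDC2 markers were 192 to 314 CPM in cDC1 and 2280 to 3190 CPM in cDC2. Of these 7, Clec12a went the other way, at 156 to 281 CPM in cDC1 and 53.5 to 94.1 CPM in cDC2. In cDC1 WT replicate 1 it made up 162 of the 192 CPM. Gene-level counts cannot check the genotypes, because reads outside a deleted part still count. The mean of Xbp1 was 179 CPM in cDC1 WT, 103 CPM in cDC1 Xbp1 KO and 339 CPM in cDC1 Xbp1-Ire1 KO, and that of Ern1, the gene of IRE1, was 25.7, 31.7 and 62.4 CPM in the same order. Replicate 3 of cDC1 Xbp1 KO held pancreatic acinar transcripts at a summed 1460 CPM, against at most 6.79 CPM in every other library.

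Notch receptors are membrane proteins that bind ligands of the Delta and Jagged families on neighbouring cells. Binding exposes a site that the protease ADAM10 cuts, gamma-secretase then releases the intracellular part of the receptor, and this part joins RBPJ in the nucleus to switch on targets such as Hes1. Before they reach the surface, receptors are cut by furin and their sugars are extended by fringe enzymes in the Golgi. In the mouse spleen, Notch2 signalling is known to be required for the ESAM+ subset of cDC2. IRE1 cuts Xbp1 mRNA within stem-loops, and when XBP1 is missing in cDC1 its RNase is known to be active on other mRNAs.

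Because the comparison of Xbp1 KO with Xbp1-Ire1 KO is a comparison with and without IRE1, the coding sequences were searched for the stem-loop that IRE1 cuts. The search asked for a 7-base loop CNGCAGN, on the coding strand, closed by at least 4 Watson-Crick pairs directly beside the loop. It was chosen after the expression values were seen. In the GENCODE M21 annotation (GRCm38), 422 of 21877 protein-coding genes (1.93%) held at least 1 such stem-loop in their longest coding sequence. Xbp1 and Bloc1s1, known targets of IRE1, were searched as reference examples and held 2 and 1. Among the 7 members, Notch4 held 1 and the other 6 held 0, and none of the 81 other Notch pathway genes listed held one. The 4 windows are shown because they let the Notch4 sequence be read beside known substrates, with the loop in capitals, 5′ to 3′ and written as DNA.
Notch4, chr17:34582847-34582876, plus strand: gacggtgtcacCCGCAGTgtgactctgagg
Xbp1, chr11:5524265-5524294, plus strand: gtctgctgagtCCGCAGCactcagactatg
Xbp1, chr11:5524291-5524320, plus strand: tatgtgcacctCTGCAGCaggtgcaggccc
Bloc1s1, chr10:128920000-128920028, minus strand: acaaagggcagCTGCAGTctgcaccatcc

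The Notch4 loop lies in exon 21 of 30, at base 3679 of a coding sequence of 5892 bases, and its stem has 5 pairs. The stems of Xbp1 have 6 and 7 pairs and that of Bloc1s1 has 4. The core hexamer CTGCAG alone separated the receptors less: the coding sequence of Notch4 held it 12 times (2.04 per kb), that of Notch1 12 times (1.58 per kb) and that of Notch2 6 times (0.809 per kb), against a median of 0.848 per kb over all genes. Such matches describe sequence and do not show that the RNA is cut.

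Promoters from RefSeq (GRCm38.p6), 250 bases before to 50 after the start site, were found for 6 of the 7 members, Hes1 having no entry. They were searched on both strands for TGGGAA, the core of the RBPJ site, and for ACGTG and TGACGTG, cores of XBP1 sites; every TGACGTG also counts as an ACGTG. These motifs occurred in 25.6%, 19.6% and 2.01% of 32851 promoters. The promoters of Notch1, Notch2, Notch4 and Jag1 held none of them. The first of 2 Rbpj promoters held 2 matches to TGGGAA and 1 to ACGTG, and Adam10 held 2 overlapping ACGTG matches on opposite strands. The promoters of Notch4 and Rbpj are shown, with matches in capitals, because these members differed between WT cDC1 and WT cDC2 and between the cDC1 genotypes.
Notch4, chr17:34564045-34564344, plus strand: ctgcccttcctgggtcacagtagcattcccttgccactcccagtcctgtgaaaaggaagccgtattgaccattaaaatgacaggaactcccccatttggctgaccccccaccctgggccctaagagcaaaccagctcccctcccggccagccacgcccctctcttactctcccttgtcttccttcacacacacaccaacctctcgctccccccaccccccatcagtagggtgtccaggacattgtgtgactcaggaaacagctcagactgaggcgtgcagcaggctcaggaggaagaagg
Rbpj, chr5:53590096-53590395, plus strand: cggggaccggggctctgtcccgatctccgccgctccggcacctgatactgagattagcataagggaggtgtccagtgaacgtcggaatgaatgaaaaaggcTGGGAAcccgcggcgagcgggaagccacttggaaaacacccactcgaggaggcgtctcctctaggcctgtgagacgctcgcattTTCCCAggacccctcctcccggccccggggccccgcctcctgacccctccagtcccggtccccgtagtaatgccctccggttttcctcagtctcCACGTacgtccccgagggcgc

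Expression was compared with edgeR's quasi-likelihood test on raw counts, and a gene was called at a Benjamini-Hochberg adjusted p under 0.05 over all genes tested. Levels are CPM scaled by TMM over all 19 libraries. All 7 members passed the filter on low counts in every fit. Which comparisons the earlier results covered is not stated, and the cDC1 genotype comparisons were treated as known. The members' values there are therefore given as a description, with their call and without a p-value, and nothing rests on them. The members' p-values in the other comparisons assume that those were not used in the choice. The 3 genotype comparisons of a cell type share libraries, so their values are set side by side.

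Per exon length, the members differed widely in WT cDC1. Mean levels, in RPKM (the CPM per kilobase of exon), were 30.7 ± 5.5 for Hes1, 26.5 ± 0.50 for Rbpj, 22.4 ± 4.8 for Notch2 and 21 ± 1.9 for Adam10 (SD, n = 3). Notch4 followed at 13.4 ± 1.1 RPKM and Jag1 at 5 ± 2.2 RPKM, and Notch1 was lowest at 0.315 ± 0.10 RPKM. In WT cDC2 the receptors came in the same order at other distances: Notch2 stood at 28.5 ± 7.7 RPKM, Notch4 at 0.76 ± 0.16 RPKM and Notch1 at 0.253 ± 0.15 RPKM (SD, n = 4). The annotated exons of Rbpj add up to 12750 bases over many isoforms, which lowers its RPKM.

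**Figure D1:**
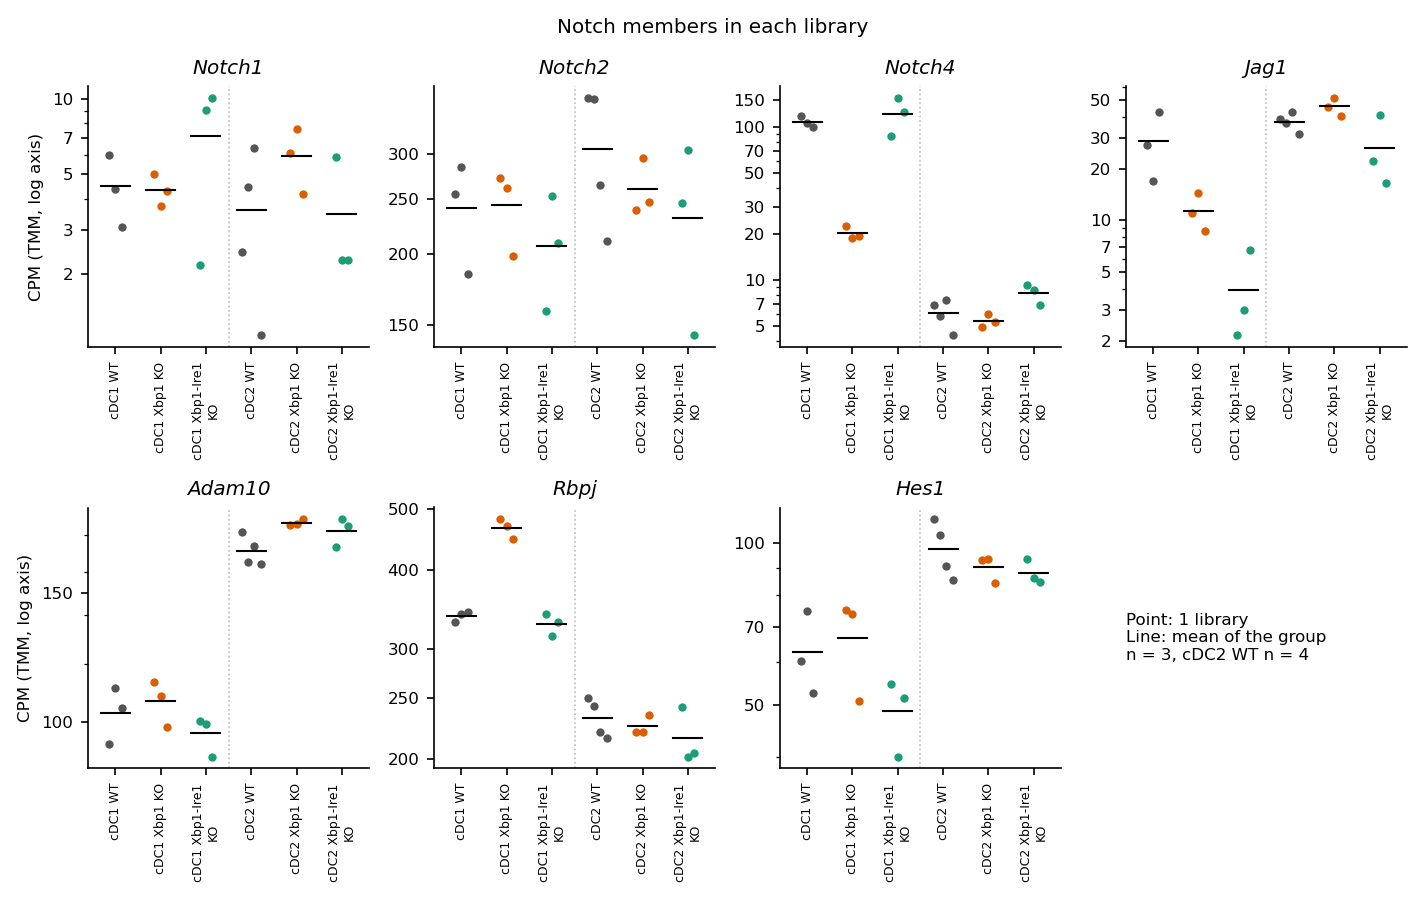
Level of each member in each library, as CPM on a log axis that differs between panels; each point is 1 library and each line the mean of its group. Notch4 in cDC1 Xbp1 KO lay at 18.97 to 22.4 CPM, below all other cDC1 libraries, and Jag1 in cDC1 Xbp1-Ire1 KO lay at 2.16 to 6.71 CPM.

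Notch4 was the receptor that separated both the cell types and the cDC1 genotypes. Its level was 117.9, 106.2 and 100.1 CPM in the 3 cDC1 WT libraries. It was 22.4, 18.97 and 19.28 CPM in cDC1 Xbp1 KO, and 87.41, 154.8 and 124.9 CPM in cDC1 Xbp1-Ire1 KO. Every Xbp1 KO library was below every other cDC1 library, while WT and Xbp1-Ire1 KO overlapped. The log2 fold change was -2.43 ± 0.19 (SE) for Xbp1 KO against WT, a 5.38-fold lower level, and 2.61 ± 0.19 for Xbp1-Ire1 KO against Xbp1 KO, a 6.12-fold higher level; Notch4 was called in both. Against WT, Xbp1-Ire1 KO differed by 0.18 ± 0.18 and was not called. Notch4 ranked 61 of 11353 tested genes from the lowest log2 fold change in Xbp1 KO against WT.

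The same receptor was low in cDC2 in every genotype. The 4 cDC2 WT libraries held 6.837, 5.859, 7.423 and 4.383 CPM, the Xbp1 KO libraries 4.964, 6 and 5.349 CPM, and the Xbp1-Ire1 KO libraries 9.277, 8.631 and 6.921 CPM. These are 54 to 139 counts a library. Xbp1 KO differed from WT by -0.19 ± 0.26 on the log2 scale (adjusted p = 0.816, edgeR), with an approximate 95% interval of -0.70 to 0.33. Between the knockouts the 3 Xbp1-Ire1 KO libraries were all above the 3 Xbp1 KO libraries, with a log2 fold change of 0.61 ± 0.28, but this did not pass the test (adjusted p = 0.604). In this comparison 15.8% of all tested genes had groups that did not overlap.

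In WT cells Notch4 was 17.6-fold higher in cDC1 than in cDC2 (log2 fold change 4.14 ± 0.19, adjusted p = 1.65e-12, edgeR), and the groups did not overlap. In order of mean level, cDC1 Xbp1-Ire1 KO and cDC1 WT overlapped at the top, cDC1 Xbp1 KO stood apart in the middle at 18.97 to 22.4 CPM, and the 3 cDC2 groups came last, all below 9.28 CPM; cDC2 Xbp1-Ire1 KO overlapped cDC2 WT. The difference between the cell types in the effect of Xbp1 loss was -2.25 ± 0.28 on the log2 scale, and that in the step from Xbp1 KO to Xbp1-Ire1 KO was 1.99 ± 0.29. In sorted bulk RNA, fewer cells with a transcript and less of it per cell cannot be told apart. Endothelial cells also express Notch4: the sum of their 8 markers in cDC1 was 60.6 to 86.9 CPM for WT, 59.5 to 99.7 CPM for Xbp1 KO and 57.6 to 73.4 CPM for Xbp1-Ire1 KO. The sum was 91.5 to 136 CPM over the cDC2 libraries. It was mostly Pecam1 and Vwf in cDC1 WT replicate 1, at 37.6 and 18.2 of 60.6 CPM, and Pecam1 was 58.2 to 97.9 CPM in cDC2. Cdh5 had 0 to 14 counts a library. Stab2 was not lower in cDC1 Xbp1 KO, at 68, 115 and 31 counts against 33, 24 and 31 in WT. Kdr, unlike Notch4, was lower in cDC1 than in cDC2, at 9, 11 and 30 counts against 209, 113, 130 and 110 in WT. Emcn was at 0 in every group, and Tek in cDC1 WT, cDC1 Xbp1 KO and cDC2 Xbp1 KO. Egfl7, another of the 8, followed the pattern of Notch4 in cDC1, with 20, 8 and 11 counts in the WT libraries, 0 in all 3 of Xbp1 KO and 14, 18 and 12 in those of Xbp1-Ire1 KO. It was called in both comparisons with Xbp1 KO (adjusted p = 0.0115 against WT and 0.0103 between the knockouts, edgeR), and its part in the Notch4 result was not tested.

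The tested genes beside Notch4 on chromosome 17 were not called. Neighbours were the nearest 3 genes on each side among those tested in the fit of all 19 libraries, so untested genes may lie between. Gpsm3, Pbx2 and Rnf5, the 3 downstream, had log2 fold changes of -0.31 ± 0.15, -0.11 ± 0.32 and -0.47 ± 0.19 in cDC1 Xbp1 KO against WT. Their adjusted p-values were 0.207, 0.866 and 0.133 (edgeR). The 3 upstream did not pass the filter of the cDC1 fit. Jag1 and Rbpj, the other members called in cDC1, had called neighbours, as had Notch1, Notch2, Hes1 and Adam10. Beside Jag1, Plcb4 was higher than WT in both knockouts of both cell types, with log2 fold changes of 1.58 ± 0.22 and 1.36 ± 0.21 in cDC1 and 4.64 ± 0.47 and 4.51 ± 0.47 in cDC2 (adjusted p = 0.000403, 0.00159, 0.000403 and 0.000763, edgeR). Beside Rbpj, Stim2 and Smim20 were lower in cDC1 Xbp1 KO than in WT (-2.30 ± 0.19 and -0.72 ± 0.20), and both were called. Across the 19 libraries, centred within cell type, the genes whose log2 CPM was most like that of Notch4 were Mlec (Pearson's r = 0.97), Stim2 (0.96) and Itgb2 (0.95). Mlec encodes malectin, a lectin of the endoplasmic reticulum, Stim2 a calcium sensor of that compartment, and Itgb2 a beta subunit shared by leukocyte integrins. These libraries share the genotype groups, so the values describe a common pattern. In cDC1 Xbp1 KO against WT, Stim2 had a log2 fold change of -2.30 ± 0.19 (mean 8.38 CPM against 41.1 CPM) and Itgb2 one of -3.60 ± 0.19 (35.5 against 429 CPM). Mlec had one of -1.40 ± 0.14 (245 against 643 CPM). Between the WT cell types Mlec, like Notch4, was higher in cDC1 (643 against 165 CPM, log2 fold change 1.97 ± 0.12, adjusted p = 1.22e-10), while Stim2 and Itgb2 were lower in cDC1 (-1.04 ± 0.14 and -1.12 ± 0.13). Neither Mlec, Stim2 nor Itgb2 is among the 422 genes with the stem-loop.

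Genes with the stem-loop in their coding sequence were counted beside the Notch4 result, with no test. The stem-loop rule was chosen after the expression values were seen, and the counts include Notch4 itself. Coding length was not matched, and that of Notch4 is 5892 bases against a median of 1173 over all genes. No cause is read from these counts. Of the 422, 229 were tested in cDC1. In Xbp1 KO against WT, 34 were called lower (14.8%, against 6.91% of all tested genes) and 8 higher, and Notch4 had the third lowest log2 fold change of them. The median log2 fold change of the 229 was 0.03, close to the -0.02 of all genes. In Xbp1-Ire1 KO against Xbp1 KO, 36 were called higher (beside 7.13% of all genes) and 8 lower. In Xbp1-Ire1 KO against WT, 8 were called lower (3.49%, against 4.71% of all genes).

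Notch2, the receptor with the highest level in both cell types, did not separate the genotypes. Mean levels ran from 207 ± 47.1 CPM in cDC1 Xbp1-Ire1 KO to 307 ± 82.7 CPM in cDC2 WT, and each group overlapped the next in order. In cDC2 the log2 fold change was -0.26 ± 0.24 for Xbp1 KO against WT (adjusted p = 0.716) and -0.42 ± 0.24 for Xbp1-Ire1 KO against WT (adjusted p = 0.669). The fl-fl libraries of cDC2 WT held 377.2 and 374.9 CPM and those named WT held 265.1 and 210.9 CPM, a gap as wide as any between the groups. WT cDC1 were 1.27-fold lower than WT cDC2 and not called (adjusted p = 0.261), but with the replicate number as a block the difference was -0.50 (adjusted p = 0.0313). The block also follows the library name, since replicates 1 and 2 are fl-fl and replicate 3 is named WT, and pairing and name cannot be told apart. Within fl-fl libraries the difference was -0.49 (adjusted p = 0.162) and within those named WT -0.38 (adjusted p = 0.454).

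Notch1 had low counts, 14 to 151 in a library, which varied within groups (24, 151 and 151 in cDC1 Xbp1-Ire1 KO). In cDC1 the mean level was 4.477 CPM for WT, 4.338 CPM for Xbp1 KO and 7.125 CPM for Xbp1-Ire1 KO. The cDC2 means were 3.594, 5.95 and 3.474 CPM, genotypes in that order. All 6 groups overlapped their neighbours in order, and Notch1 was called in none of the comparisons. A member of the family outside this set, Notch3, had 0 to 4 counts in the 9 cDC1 libraries.

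Jag1, a ligand of the Jagged family, fell stepwise across the cDC1 genotypes. The WT libraries held 27.57, 16.96 and 42.85 CPM, those of Xbp1 KO 11.03, 14.43 and 8.742 CPM, and those of Xbp1-Ire1 KO 2.16, 3.008 and 6.71 CPM. None of the 3 groups overlapped another. The log2 fold changes were -1.36 ± 0.39 (Xbp1 KO against WT), -2.86 ± 0.42 (Xbp1-Ire1 KO against WT) and -1.50 ± 0.41 (Xbp1-Ire1 KO against Xbp1 KO), and all 3 were called. The first was small against the spread of WT: without cDC1 WT replicate 3, the library with the highest level, it was -0.96 and was no longer called. It was also not called without cDC1 WT replicate 1, without any 1 of the 3 Xbp1 KO libraries or without Xbp1-Ire1 KO replicate 2, and the step between the knockouts was not called without replicate 1 or 2 of either knockout.

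In cDC2, Jag1 was 38.74, 36.77, 42.81 and 31.9 CPM in WT. The Xbp1 KO libraries held 45.84, 51.55 and 40.7 CPM, and those of Xbp1-Ire1 KO 22.09, 40.97 and 16.48 CPM, where 1 library lay among those of the other genotypes. The log2 fold change between the knockouts was -0.80 ± 0.26 and did not pass the test (adjusted p = 0.477), but without that library, cDC2 Xbp1-Ire1 KO replicate 2, it was -1.25 (adjusted p = 0.0476). The log2 fold change of Xbp1-Ire1 KO against WT in cDC1 minus that in cDC2 was -2.36 ± 0.50. WT cDC1 and WT cDC2 did not differ beyond their spread (log2 fold change -0.37 ± 0.33, adjusted p = 0.401).

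The genes most like Jag1 over the 19 libraries were Slco5a1, Relb and Ssh1, each with r = 0.92. Relb, a subunit of the transcription factor NF-kappaB that marks dendritic cell maturation, was lower than WT in both cDC1 knockouts, with log2 fold changes of -0.86 ± 0.15 in Xbp1 KO and -1.53 ± 0.15 in Xbp1-Ire1 KO. Ssh1 had log2 fold changes of -0.19 ± 0.18 and -0.84 ± 0.18, and Slco5a1 of -1.45 ± 0.42 and -3.93 ± 0.48, in the same comparisons. These genes were picked for their likeness to Jag1 in these libraries, so their values are a description. Immediate early genes in cDC1 summed to 8000 to 9200 CPM for WT, 13700 to 16300 CPM for Xbp1 KO and 5900 to 9880 CPM for Xbp1-Ire1 KO, and monocyte markers summed to 196 to 311, 378 to 430 and 379 to 512 CPM. Their part in the Jag1, Rbpj and Notch4 results was not tested.

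Adam10, the protease that cuts the bound receptor, kept a narrow range. Mean levels were 103 ± 9.13, 106.7 ± 7.64 and 96.48 ± 5.94 CPM in cDC1 WT, Xbp1 KO and Xbp1-Ire1 KO, and it was called in no genotype comparison. In cDC2 the means were 171.3, 186.9 and 182.5 CPM, with log2 fold changes against WT of 0.11 ± 0.10 and 0.07 ± 0.10 (adjusted p = 0.716 and 0.862). All cDC2 libraries were above all cDC1 libraries. In WT cells the level was 1.66-fold lower in cDC1 (adjusted p = 4.16e-06).

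Rbpj, the DNA-binding partner of the receptors, was the member that rose when Notch4 fell. It was 331.1, 340.1 and 343.3 CPM in cDC1 WT, 482.2, 471.4 and 449.2 CPM in cDC1 Xbp1 KO, and 340.2, 314.6 and 330.2 CPM in cDC1 Xbp1-Ire1 KO. The Xbp1 KO libraries stood above all the others, at 1.37-fold the WT level. The log2 fold changes were 0.46 ± 0.10 against WT and -0.49 ± 0.10 from Xbp1 KO to Xbp1-Ire1 KO, both called. Xbp1-Ire1 KO differed from WT by -0.04 ± 0.10 and was not called. Over the 19 libraries, centred within cell type, the r of Rbpj with Notch4 was -0.87. These libraries share the genotype groups, so this r restates the group differences in cDC1 and is a description. In cDC2 the means were 232.6 ± 16.9, 225.7 ± 8.3 and 216 ± 22.5 CPM, with no call (adjusted p = 0.868, 0.788 and 0.912). The rise in cDC1 Xbp1 KO lost its call without cDC1 WT replicate 1 or 2 or Xbp1 KO replicate 1 or 2, at log2 fold changes of 0.45 to 0.50 over all libraries left out. WT cDC1 were 1.45-fold higher than WT cDC2 (adjusted p = 0.000104).

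Hes1, the target of the pathway in this set, differed between the WT cell types and was called in no genotype comparison. Its level was 60.43, 74.8 and 52.65 CPM in cDC1 WT and 75.1, 73.79 and 50.82 CPM in cDC1 Xbp1 KO. It was 54.64, 40.06 and 51.6 CPM in cDC1 Xbp1-Ire1 KO, and all 3 groups overlapped. Log2 fold changes in cDC1 were 0.08 ± 0.19, -0.36 ± 0.19 and -0.43 ± 0.19 in the order of comparisons above, with no call. In cDC2 they were -0.13 ± 0.12, -0.17 ± 0.12 and -0.04 ± 0.13 (adjusted p = 0.717, 0.724 and 0.959, edgeR). In WT cells Hes1 was 1.56-fold lower in cDC1 than in cDC2 (adjusted p = 0.00218, edgeR).

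**Figure D2:**
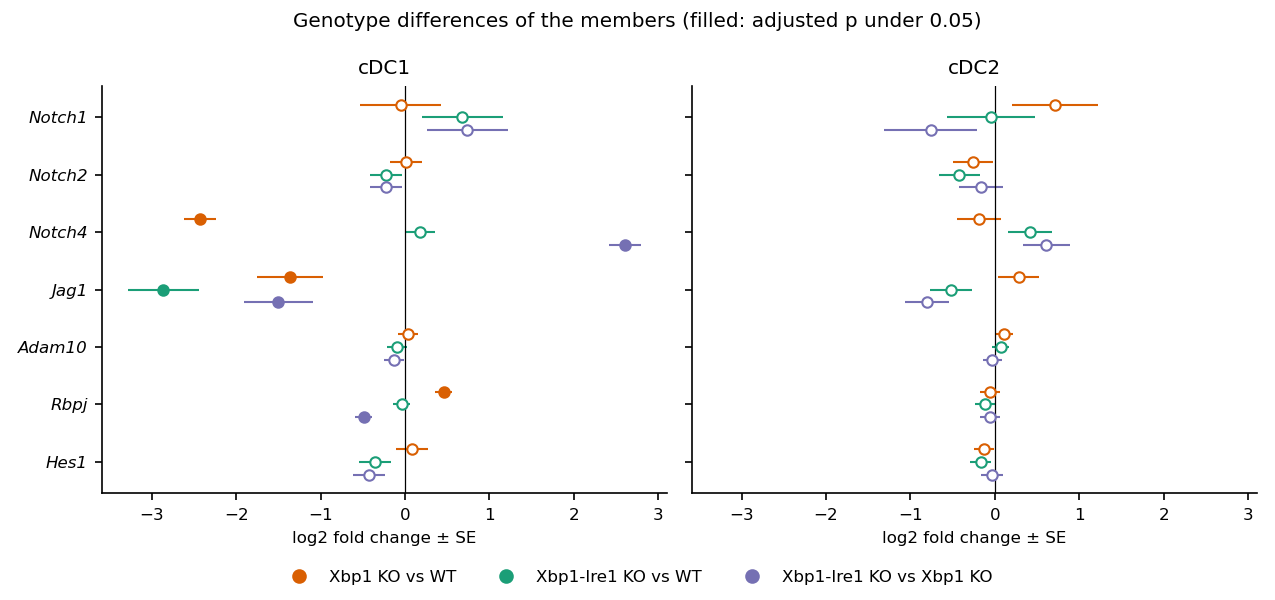
Log2 fold change ± SE of each member between genotypes, in cDC1 and in cDC2, with filled points for genes at an adjusted p under 0.05. In cDC1, Notch4, Jag1 and Rbpj carry filled points, and in cDC2 no member does.

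In cDC1, 3 of the 7 members were called in Xbp1 KO against WT (Notch4 and Jag1 lower, Rbpj higher), where 11.2% of all tested genes were called. In Xbp1-Ire1 KO against WT, 1 was called (Jag1) against 7.75% of all genes, and between the knockouts 3 (Notch4 higher, Jag1 and Rbpj lower) against 12.7%. Groups that did not overlap were found for 30.1%, 26.4% and 36.7% of all genes in these comparisons. Since these results were treated as known when the members were chosen, nothing is read from these shares. In cDC2, 0 members were called by edgeR or DESeq2 in any of the 3 comparisons, where 0.103%, 0.0258% and 0.0343% of all genes were called, and 0, 0 and 2 had an unadjusted p under 0.05, as had 9.68%, 7.53% and 8.24% of all genes. Between WT cDC1 and WT cDC2, 4 members were called (Notch4 and Rbpj higher in cDC1, Hes1 and Adam10 lower), where 40.8% of all genes were called and 41.7% had groups that did not overlap. The change with genotype itself was called as different between cDC1 and cDC2 for 1 member in each of the 3 comparisons (Notch4, Jag1 and Notch4), where 2.17%, 2.23% and 2.14% of all genes were called. These differences contain the cDC1 comparisons that were treated as known. They are a description, and nothing is read from these shares either.

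The rest of the pathway was read from a list of 81 other Notch genes, of which 80 had a row and 65 were tested in cDC1. This list, too, was chosen with earlier results of these data known. The adjusted p-values of its genes in the cDC1 genotype comparisons, here and below, are therefore a description. In cDC1 Xbp1 KO against WT, 4 were called higher and 6 lower, or 10 of 65 beside 11.2% of all genes. The lowest was Tspan17, a tetraspanin of the group that accompanies ADAM10, with 3, 2 and 0 counts in the Xbp1 KO libraries against 67, 65 and 91 in WT (adjusted p = 1.89e-05). Summed over libraries its level was 39.5-fold higher in WT, with a 95% interval of 16.7 to 123 for counting error alone. In cDC1 Xbp1-Ire1 KO it held 163, 248 and 226 counts, above every WT library (log2 fold change against WT 1.30 ± 0.33, adjusted p = 0.0281). Furin, which cuts receptors in the Golgi, fell from 107 ± 3.76 CPM in cDC1 WT to 43.6 ± 5.59 CPM in Xbp1 KO (log2 fold change -1.30 ± 0.14, adjusted p = 5.59e-05) and was 120 ± 17.2 CPM in Xbp1-Ire1 KO.

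All 3 fringe glycosyltransferases, which extend sugars on the receptors, were lower in cDC1 Xbp1 KO than in WT. The log2 fold changes were -1.15 ± 0.29 for Lfng, -0.74 ± 0.18 for Mfng and -0.81 ± 0.22 for Rfng (adjusted p = 0.0219, 0.0189 and 0.0325); Rfng is named beyond the naming rule, after its value was seen. Mfng and Rfng were higher again in Xbp1-Ire1 KO than in Xbp1 KO (0.92 ± 0.18 and 0.75 ± 0.22, adjusted p = 0.00508 and 0.0414). Lfng was not: it was also lower than WT in Xbp1-Ire1 KO (log2 fold change -1.39 ± 0.29, adjusted p = 0.00949). In WT, Lfng was 119.6 and 98.64 CPM in the fl-fl libraries and 43.66 CPM in the library named WT, which lay among the Xbp1 KO libraries at 33.85 to 43.88 CPM. Tle3, a corepressor, was lower in Xbp1 KO (log2 fold change -0.65 ± 0.13), and Ncor1, another, was higher (0.68 ± 0.18) (adjusted p = 0.00682 and 0.03).

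**Figure D3:**
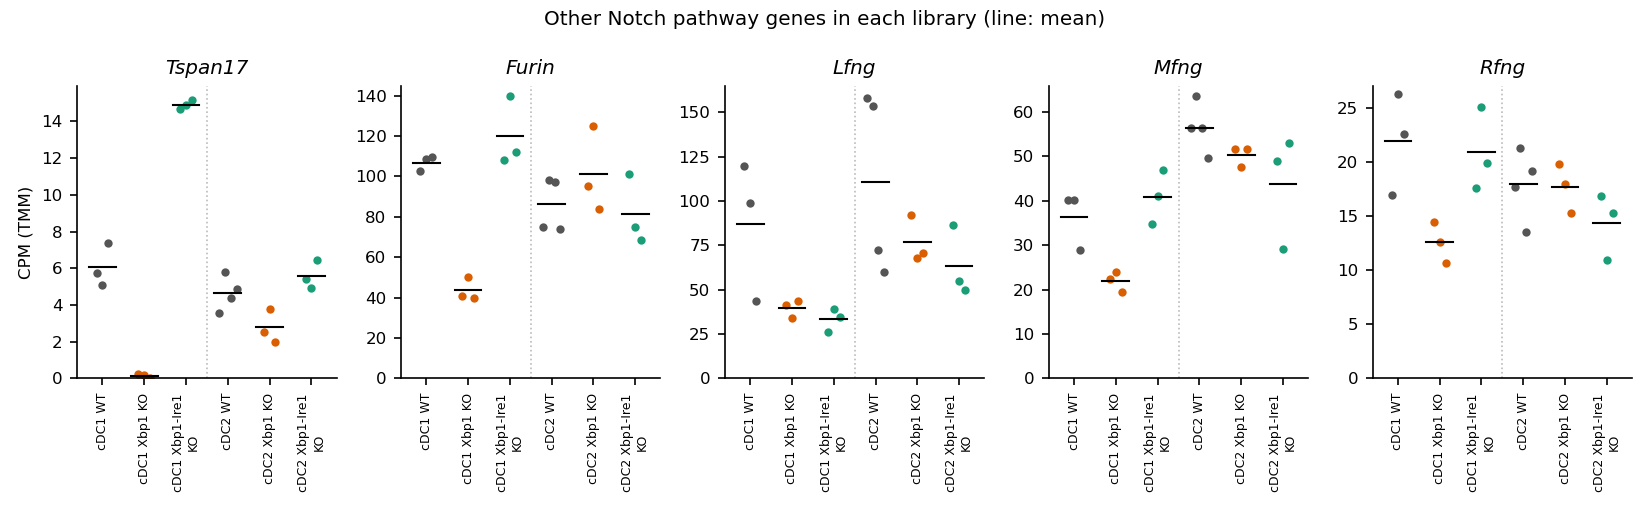
Level in CPM of 5 pathway genes outside the member set in each library, on axes that start at 0; each point is 1 library and each line the mean of its group. Tspan17, Furin, Mfng and Rfng were lower in cDC1 Xbp1 KO than in the other cDC1 groups, and Lfng was low in both cDC1 knockouts.

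Between the cDC1 knockouts 7 pathway genes of 65 tested were called higher and 11 lower in Xbp1-Ire1 KO, beside 12.7% of all genes called. Beside Tspan17 and Furin, the smallest adjusted p-values belonged to the coactivators Ep300 (log2 fold change -0.95 ± 0.15, adjusted p = 0.00112) and Crebbp (-0.80 ± 0.14, adjusted p = 0.00235), the secretase subunit Aph1b (-0.89 ± 0.16, adjusted p = 0.00292) and Mfng. Ep300 and Crebbp were higher in Xbp1 KO than in WT by 0.50 ± 0.15 and 0.51 ± 0.14 (adjusted p = 0.0435 and 0.0323). In Xbp1-Ire1 KO against WT, 2 of the 65 were called higher and 5 lower, beside 7.75% of all genes called. The lower ones included Esam and Cd4, surface genes known to depend on Notch2 in cDC2, at 2.90 and 3.10 CPM against 12.4 and 11.1 CPM in WT (log2 fold changes -2.11 ± 0.45 and -1.81 ± 0.46, adjusted p = 0.0121 and 0.0293). Their means in cDC2 WT were 68.1 and 261 CPM. The part of any cDC2 RNA in the cDC1 libraries was not tested. Of 7 tested genes on the list of Notch targets, 0 were called in any cDC1 genotype comparison. At an unadjusted p under 0.05 they numbered 0, 2 and 3 in the 3 comparisons, beside 28.3%, 22.5% and 28.5% of all genes.

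The counts of called genes, of the pathway and of all genes, depended on single libraries. Without 1 cDC1 library, all called genes numbered 471 to 2926 in Xbp1 KO against WT and 430 to 1966 in Xbp1-Ire1 KO against WT. Between the knockouts they numbered 648 to 2400. Called pathway genes, in the same order, numbered 2 to 21, 1 to 13 and 7 to 25. Both upper values against WT came without cDC1 WT replicate 3, the library named WT. The value of 2 came without cDC1 Xbp1 KO replicate 2, as did the 7, and the 1 came without cDC1 Xbp1-Ire1 KO replicate 1. Without any 1 of the other 4 WT and Xbp1 KO libraries the count in Xbp1 KO against WT was 3 to 5. In cDC2, 69 of the pathway genes were tested and 0 were called in any genotype comparison by edgeR or DESeq2 with all libraries, with 5, 4 and 5 at an unadjusted p under 0.05. Against the fl-fl WT libraries alone some were called, as given in the last section.

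Between WT cDC1 and WT cDC2, 13 pathway genes were higher in cDC1 and 21 lower, of 70 tested, beside 20% and 20.7% of all genes. Jag2, the other Jagged ligand, was at 20.6 CPM in WT cDC1 and 0.796 CPM in WT cDC2, so that Notch4 and Jag2 were both higher in cDC1. Dtx1, an E3 ligase that binds Notch receptors and is itself a Notch target, was at 3.57 ± 1.59 CPM in WT cDC1 and 490 ± 62.2 CPM in WT cDC2 (log2 fold change -7.09 ± 0.36, adjusted p = 4.9e-12). The cDC2 surface genes Clec4a4 and Cd4 were lower in cDC1, with log2 fold changes of -9.06 ± 0.37 and -4.56 ± 0.36 (adjusted p = 3.07e-13 and 2.43e-09), Clec4a4 with 1 to 5 counts in the WT cDC1 libraries. Ccnd1, a cyclin and Notch target, was also lower (-2.39 ± 0.13), as was Tspan5, a tetraspanin partner of ADAM10 (-2.93 ± 0.28, adjusted p = 9.04e-12 and 4.1e-08). Clec4a4 and Esam also stand on the list of cDC2 markers.

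**Figure D4:**
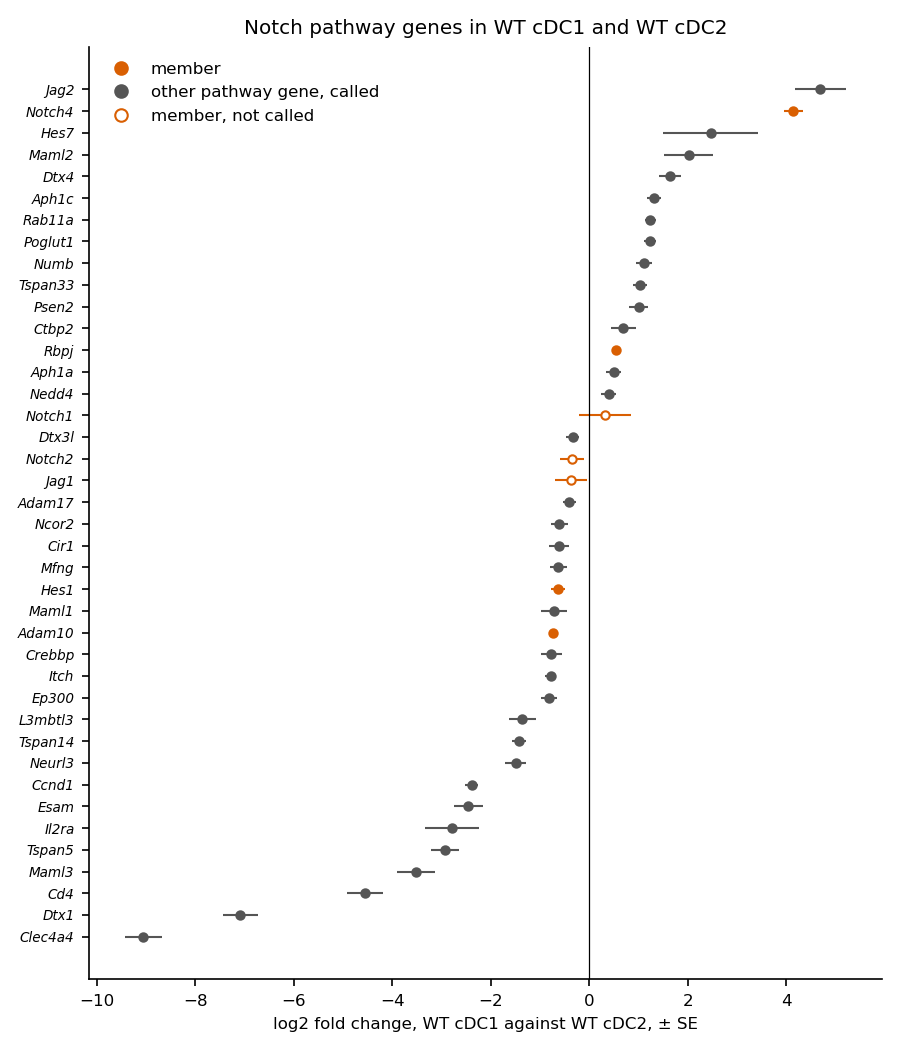
Log2 fold change ± SE between WT cDC1 and WT cDC2 for the 7 members and for the other pathway genes that were called, without Notch3, which had 0 counts in WT cDC1. Jag2 and Notch4 lie at the top, at 4.69 and 4.14, and Dtx1 and Clec4a4 at the bottom, at -7.09 and -9.06.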

How the data were processed

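Raw counts per gene symbol were deposited by the authors in 1 table per cell type, per the file headers. The deposited log2 values, normalized by the authors, cover 11059 genes in cDC1 and 11441 in cDC2 and were used in 1 alternative only. The submitters' processing notes name the build mm10 and the tools TopHat2 2.1.0, limma 3.42.2, SAMtools 0.1.19, FastQC 0.11.4 and Trimmomatic 0.35. The program that counted reads, and whether it used strand, is not given in the sources used here. Reads of Notch1, Notch4 and Rbpj therefore cannot be told apart from those of genes annotated on the other strand.

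The groups of a cell type were fitted together in edgeR 4.0.16 (R 4.3.3), after filterByExpr (counts of at least 10, totals of at least 15), with TMM and the quasi-likelihood F test. WT cells of both types and differences of effect were tested in 1 fit of all 19 libraries and 12185 genes. An SE was taken as the size of the log2 fold change over the root of its F. The filter left 11353 genes in cDC1 and 11646 in cDC2. Marker sums are unscaled CPM over all counts. Exon lengths are from GENCODE M21, which matched 23334 of the symbols. The fits were tested on simulated counts.

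Members and lists were chosen with earlier results of these data known. Named from the pathway list were genes called in a comparison, up to the 6 with the smallest adjusted p. Rfng, Notch3 and Jag2, and Ep300 and Crebbp in cDC1 Xbp1 KO against WT, were named beyond the rule after their values were seen. The genes of likeness are the 3 with the highest Pearson's r to a member. Same-numbered WT libraries of the cell types deviated together (r of 0.13 to 0.26 over 3 pairs), so the blocked value is given there, although the numbers also follow the library name and, for replicate 3, differ from the numbers inside the deposited column names; in no other comparison did every pair exceed 0.1. Other settings tried were limma 3.58.1 on the deposited log2 values, DESeq2 1.42.0, edgeR with the size factors of DESeq2, no filter, at least 5 CPM in 3 libraries, the block, a fit of only the compared groups, WT libraries of only 1 name, and leaving out every library in turn. Where 1 library remained in a group, its spread was taken to be that of the other groups. Intervals of summed counts cover counting error only. Figures were drawn with matplotlib 3.10.9.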

Additional observations from a re-analysis of the deposited data

Results flagged for a closer look

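The effect of genotype differed between cDC1 and cDC2, by an interaction term in edgeR's fit of all 19 libraries, for the following genes. Values are log2 differences of fold change, cDC1 minus cDC2. For Xbp1 KO against WT they were -2.25 ± 0.28 for Notch4, -1.53 ± 0.24 for Furin (adjusted p = 0.000526) and -4.55 ± 0.60 for Tspan17 (adjusted p = 7.75e-05). For Xbp1-Ire1 KO against WT they were -2.36 ± 0.50 for Jag1, -0.74 ± 0.19 for Adam17 (adjusted p = 0.0368), -1.89 ± 0.44 for Esam (adjusted p = 0.0233) and -1.82 ± 0.47 for Cd4 (adjusted p = 0.0452). For Xbp1-Ire1 KO against Xbp1 KO they were 1.99 ± 0.29 for Notch4, 1.77 ± 0.25 for Furin (adjusted p = 0.000147), 1.11 ± 0.27 for Mfng (adjusted p = 0.0335), 1.51 ± 0.37 for Mib2 (adjusted p = 0.0301) and 5.59 ± 0.61 for Tspan17 (adjusted p = 6.6e-06). The last rests on 3, 2 and 0 counts of Tspan17 in cDC1 Xbp1 KO, so its size depends on the prior count. All these values use the cDC1 comparisons, which were treated as known when the members and lists were chosen, and are a description. Of the 7 members, none had a library far from the others within the 4 of cDC2 WT.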

How the results depend on the processing

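Notch4 was called lower in cDC1 Xbp1 KO than in WT, and higher in Xbp1-Ire1 KO than in Xbp1 KO, under every alternative run, and in WT cDC1 against WT cDC2 likewise; without 1 library its log2 fold change in Xbp1 KO against WT was -2.49 to -2.35. Jag1 in cDC1 Xbp1-Ire1 KO against WT was also called in each (-3.47 to -2.48 without 1 library). With the fl-fl libraries alone, called pathway genes numbered 21 in cDC1 Xbp1 KO against WT, 13 in cDC1 Xbp1-Ire1 KO against WT, 3 and 2 in the same comparisons of cDC2, and 4 for the difference of effect of Xbp1 KO against WT, where 2 members were called; 0 members were called for that of Xbp1-Ire1 KO against WT. With the libraries named WT alone, pathway genes numbered 2 and 3 in the cDC1 comparisons and 0 for the difference of effect of Xbp1-Ire1 KO against WT. There the log2 fold changes turned to 0.13 for Notch2, 0.04 for Rbpj and 0.03 for Hes1 in cDC2 Xbp1 KO against WT, to -0.29 for Notch1 and 0.19 for Jag1 between WT cDC1 and WT cDC2, and to -0.04 for Rbpj in the difference of effect of Xbp1-Ire1 KO against WT. Jag1 in cDC1 Xbp1 KO against WT was not called with fl-fl libraries alone, with the replicate block or by limma on the deposited log2 values, and Rbpj was not called with the library named WT alone. Limma turned Notch1 in cDC2 Xbp1-Ire1 KO against WT to 0.06. For the difference of effect of Xbp1 KO against WT, DESeq2 called 3 members and the stricter filter 2; for that of Xbp1-Ire1 KO against Xbp1 KO, DESeq2 called 2 members and 8 pathway genes, and the replicate block left 2 pathway genes. The block changed no other count of members or pathway genes by over 1.5 times, and same-numbered libraries did not all deviate together outside the WT comparison. Without 1 library, called members numbered 1 to 3 in cDC1 Xbp1 KO against WT, 0 to 1 in cDC2 Xbp1-Ire1 KO against Xbp1 KO, and 1 to 2 and 0 to 1 for the differences of effect of Xbp1 KO and of Xbp1-Ire1 KO against WT. Called pathway genes numbered 2 to 21, 1 to 13 and 7 to 25 in the cDC1 comparisons. For the differences of effect of Xbp1-Ire1 KO against WT and against Xbp1 KO they numbered 0 to 3 and 2 to 5. Counts of all called genes moved too, from 471 to 2926, 430 to 1966 and 648 to 2400 in the cDC1 comparisons. They were 170 to 298 and 194 to 335 for the same differences of effect. Log2 fold changes of Notch1 in cDC2 Xbp1-Ire1 KO against WT ran from -0.67 to 0.36, and of Notch2 from -0.42 to 0.08 in cDC2 Xbp1-Ire1 KO against Xbp1 KO, from -0.03 to 0.43 and from -0.29 to 0.18 for those differences of effect. The causes were not tested. Counts of Notch1 were 14 to 151 a library, and whether depth limits its calls was not tested.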
